A study of Solenopsis japonica with 2 samples.

Results

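The mitochondrial genome of ants is read here through 10 contigs of a de novo transcriptome of Solenopsis japonica, out of a deposited comparison of ants held at 9 °C (T9) and at 25 °C (T25) that holds 2032 contigs lower and 2455 contigs higher at 9 °C. A contig was taken when its best protein match (NR) or nucleotide match (NT) was the mitochondrial genome of an ant and neither match was a mammal. Whole bodies of adult wild-type medium workers, several to a pool, after 24 h at 9 °C or at the control temperature of 25 °C, gave 1 RNA-seq library per temperature. The study's methods speak of several independent preparations per treatment, and whether a library pools them is not given in the sources used here. Both groups came from laboratory colonies kept at 25 °C on sucrose, mealworms and an artificial diet, and the library kit selects RNA with a poly(A) tail. With 1 library a group there was no replicate check, so no difference could be set against the spread between pools of ants, and no test of the temperature was made. The deposited table holds only contigs called different between the libraries, all of them by more than 2.3-fold and with reads in both. Mitochondrial contigs outside it were therefore not analysed here.

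The mitochondrial genome of animals is small and circular, and it codes for a few core proteins of the respiratory chain and for the ribosomal and transfer RNAs that mitochondria need to make them. Complex I takes electrons from NADH, complex III passes them to cytochrome c, complex IV hands them to oxygen, and ATP synthase uses the resulting proton gradient to make ATP. All other subunits come from nuclear genes. In Drosophila the mitochondrial genome is copied from both strands into long precursors that are cut at the transfer RNAs, so that the level of each product also depends on how it is processed and how long it lasts.

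Of the 10 contigs, 6 had both a protein and a nucleotide match to an ant mitochondrion, 2 had only the nucleotide match and 2 only the protein match. The nucleotide matches were Solenopsis for 5 contigs and other ants for 3. A gene name was given by the annotation for 8 contigs. They were the complex I subunits ND1 (c90899_g1_i1), ND2 (c96614_g1_i1), ND3 (c106937_g1_i1), ND4 (c44372_g1_i1), ND4L (c90934_g1_i1) and ND6 (c13543_g2_i1), cytochrome b of complex III (CYTB, c13543_g1_i1) and subunit 6 of ATP synthase (ATP6, c118149_g2_i1). The most abundant contig (c68678_g1_i1) matched the mitochondrial genome of Solenopsis invicta by nucleotide only, its protein match was a hypothetical scorpion protein, and no mitochondrial gene was named for it. For c91062_g1_i1, matched to the Solenopsis richteri mitochondrion, no gene was named either. Complex IV subunits, ND5 and ATP8, which insect mitochondria also encode, had no contig among the members and were not analysed here. The contigs were assembled without a genome, so they have no genome coordinates.

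All 10 contigs were lower in the T9 library than in the T25 library, by 3.12-fold to 25.6-fold, when counts were scaled by the normalised library sizes of 53237356 (T9) and 49264352 (T25) that the deposited log2 values carry, and CYTB, ND3, c91062_g1_i1 and the sum of the 8 protein-coding contigs turned to slightly higher in T9 when scaled instead to a list of 16 ribosomal and other housekeeping contigs of the table. That list had a median log2 ratio of T9 to T25 of -1.91, and 1.68 over the 10 of its contigs that were not matched to a mammal. Scaled to those 10, the log2 ratios of CYTB (-3.36), ND3 (-3.47) and c91062_g1_i1 (-3.32) stayed below 0. Like all contigs of the table, those of the list differ by more than 2.3-fold between the libraries. Neither version of the list is therefore a reference of unchanged genes. The counts of the 10 mitochondrial contigs summed to 2096084 in T9 and 9493832 in T25, a ratio of 4.89-fold (exact Clopper-Pearson 95% interval 4.89 to 4.90). Parentheses after a fold hold this interval throughout, which covers counting error only. These mitochondrial contigs amounted to 3.94% of the normalised library size in T9 and to 19.3% in T25, and they made up 29.2% of all counts of the deposited table in T9 and 84.3% in T25.

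**Figure D1:**
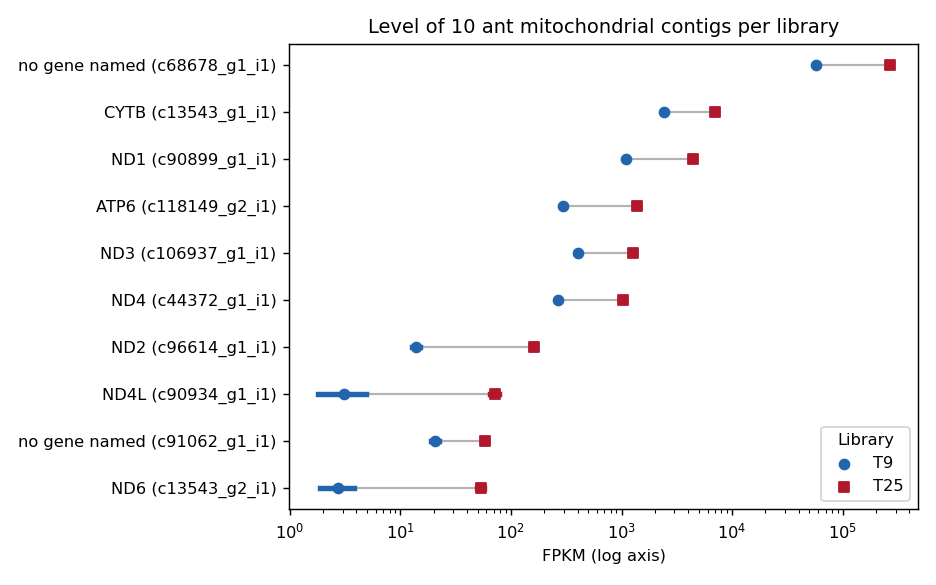
FPKM (log axis) of the 10 ant mitochondrial contigs in the T9 library (circles) and the T25 library (squares), ordered by their level in T25. Thick bars are exact Poisson 95% intervals for counting error, grey lines join the libraries, and all 10 contigs are lower in T9, from 2.72 to 57815 FPKM against 53.4 to 266325 FPKM in T25.

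The share of the table that lies on this side is the background for these counts. Of the contigs of the table, 2032 (45.3%) were lower in T9, and of the 10 mitochondrial contigs all 10 were. At least 3-fold lower were also all 10, beside 39.6% of the table. At least 4-fold lower were 7 of the 10 contigs and 30.8% of the table, at least 8-fold lower were 3 of the 10 and 13.3% of the table, and at least 16-fold lower were 2 of the 10 and 3.23% of the table. The median log2 ratio of T9 to T25 (1 added to each scaled count) was -2.23 over the members, close to -2.18 over all contigs lower in T9, whereas it was 1.45 over all contigs. Abundant contigs of the table lay mostly on the other side. Among the 483 contigs whose counts added up to 1000 or more, 98 (20.3%) were lower in T9, and 8 of the 8 mitochondrial contigs of that depth were among them. The median log2 ratio was -2.10 over these 8 mitochondrial contigs and -1.64 over the 98. At least 4-fold lower in T9 were 28 (5.8%) of the 483 contigs, 5 of them mitochondrial, and at least 8-fold lower were 10 (2.07%), of which ND2 was the mitochondrial one. In bulk RNA of whole bodies, fewer mitochondria-rich cells and less mitochondrial RNA per cell cannot be told apart. With 1 library per temperature, neither can be told from another difference between the libraries.

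**Figure D2:**
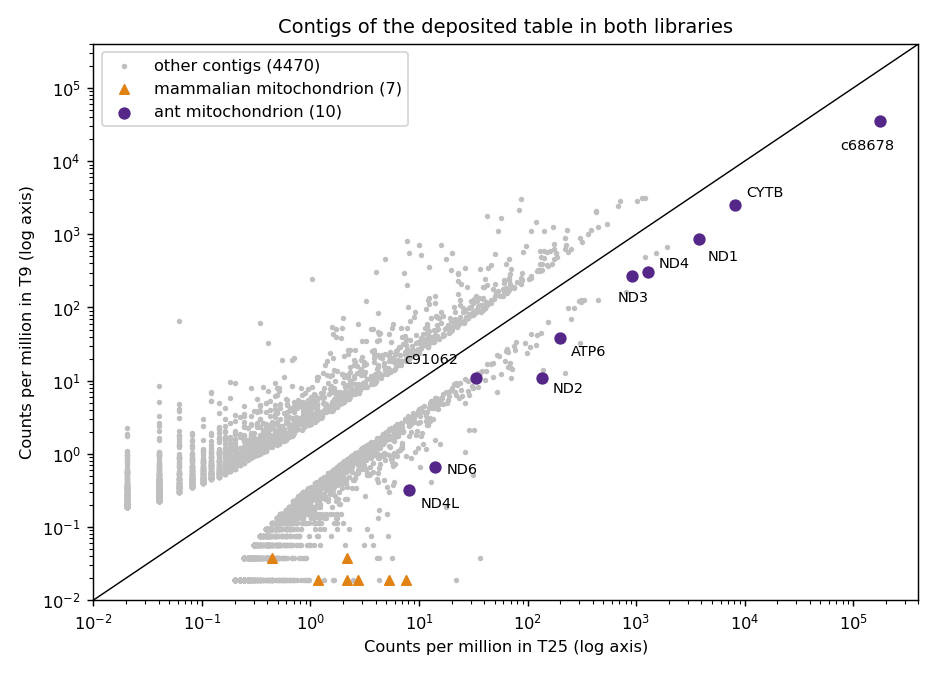
Counts scaled by the normalised library size (CPM) in T25 (x) and T9 (y), both on log axes, for the 10 ant mitochondrial contigs (purple, with gene names or contig numbers), 7 contigs matched to a mammalian mitochondrion (orange triangles) and the other contigs of the table (grey); the line marks equal levels, and the empty band along it holds the contigs that the table leaves out. The mitochondrial contigs lie below the line under this scaling and reach the highest levels of the table, and CYTB, ND3 and c91062 cross it when scaled to the housekeeping list. Scaled to that list without its mammal-matched contigs, they stay below the line.

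The most abundant contig carried most of the mitochondrial reads in both libraries. c68678_g1_i1 had 1880393 counts in T9 and 8778590 in T25, and its FPKM, which is a level per length, was 57815 and 266325. It ranked first in each library by count and by FPKM. It was 5.04-fold (5.04 to 5.05) lower in T9. This single contig amounted to 3.53% of the normalised library size in T9 and to 17.8% in T25. Of the member counts it held 89.7% (exact interval 89.7% to 89.8%) in T9 and 92.5% (92.4% to 92.5%) in T25, so the 8 protein-coding contigs together held 10.3% and 7.52%. By FPKM its share of the members was 92.7% in T9 and 94.5% in T25.

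Cytochrome b, the only mitochondrially encoded protein of complex III, was the most abundant of the protein-coding contigs. It had 136142 counts in T9 and 402232 in T25 and levels of 2414 and 7038 FPKM. The contig was 3.19-fold (3.17 to 3.21) lower in T9, the smallest difference among the protein-coding members. By count it ranked at position 7 of the table in T9 and at position 2 in T25. Without it the fold of the summed protein-coding contigs rose from 3.58 (3.57 to 3.60) to 4.26 (4.23 to 4.29).

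The 6 complex I subunits are membrane proteins of the arm that pumps protons, and they summed to 76915 counts in T9 and 301536 in T25, 4.24-fold (4.2 to 4.27) lower in T9. They fell into an abundant and a scarce set. ND1 had 45926 and 185562 counts (1107 and 4415 FPKM in T9 and T25), 4.37-fold (4.32 to 4.41) less in T9. ND4 had 16220 and 63034 counts (268 and 1027 FPKM) and was 4.2-fold (4.13 to 4.27) lower. ND3 had 14141 and 45111 counts (407 and 1280.1 FPKM) and was 3.45-fold (3.38 to 3.51) lower. These 3 abundant subunits lay close to each other in fold, although ND1 was above 1000 FPKM in both libraries and ND3 and ND4 only in T25.

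The scarce set of complex I subunits had the largest folds of all mitochondrial contigs. ND2 had 576 counts in T9 and 6731 in T25 (13.9 and 161 FPKM), which made it 12.6-fold (11.6 to 13.8) lower in T9. ND6 had 35 and 696 counts (2.72 and 53.4 FPKM) and was 21.5-fold (15.3 to 31.1) lower. ND4L had 17 and 402 counts (3.07 and 71.1 FPKM) and was 25.6-fold (15.8 to 44.3) lower. The T9 counts of ND6 and ND4L were the lowest of the members, and their fold intervals overlapped each other. Within the table, 55 of the 2032 contigs lower in T9 had a larger fold than ND4L, 80 than ND6 and 272 than ND2, whereas 1689 had a larger fold than CYTB.

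ATP6, part of the proton channel of ATP synthase, had 2057 counts in T9 and 9806 in T25 and levels of 297 and 1393 FPKM. It was 5.15-fold (4.91 to 5.40) lower in T9. The contig is short: the length by which its FPKM was divided was 0.214 times that of the most abundant contig, against 1.73 times for CYTB and 1.86 times for ND4, so its count understates its level next to these genes. By FPKM, ATP6 stood below ND3 in T9 and above it in T25. The unnamed contig c91062_g1_i1 had 577 and 1668 counts (20.4 and 58.3 FPKM) and was 3.12-fold (2.84 to 3.44) lower, the smallest fold of the 10.

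**Figure D3:**
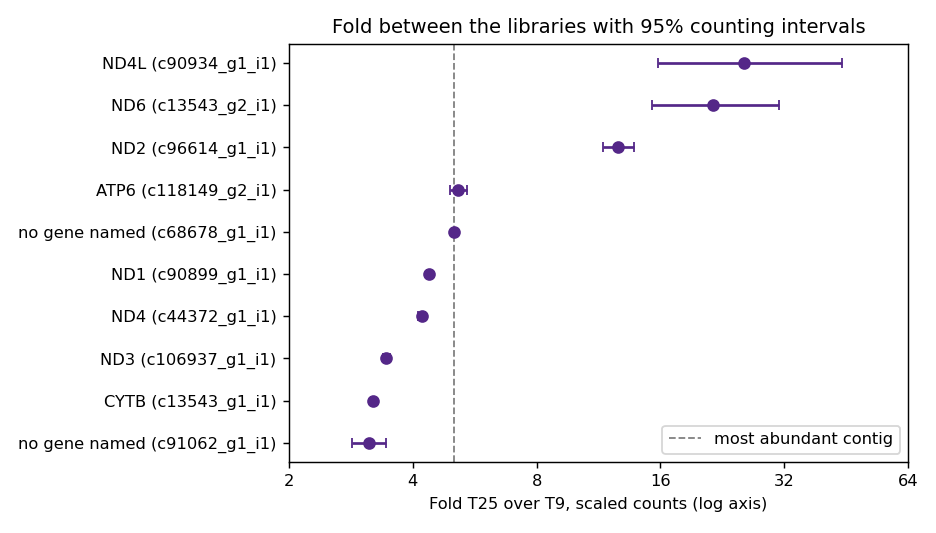
Fold of T25 over T9 (log axis) of the 10 mitochondrial contigs from scaled counts, with bars for the exact 95% Clopper-Pearson interval; the dashed line is the most abundant contig at 5.04-fold. ND2, ND6 and ND4L lie at 12.6-fold to 25.6-fold, right of the other 7 contigs at 3.12-fold to 5.15-fold. When scaled to the housekeeping list, CYTB, ND3 and c91062_g1_i1 fall just under 1. Scaled to that list without its mammal-matched contigs, they stay above 1.

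Setting each protein-coding contig against the most abundant contig removes the scaling between libraries, since both are counted in the same library. The summed protein-coding contigs fell less than the most abundant one. Its fold was 1.41 times (1.40 to 1.41, an interval for counting error only) that of the 8 contigs summed by count and 1.35 times by FPKM. By FPKM the most abundant contig stood 12.8 times above the protein-coding sum in T9 and 17.3 times above it in T25.

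By gene, 4 protein-coding contigs lay below the most abundant contig in fold, 3 lay above it and 1 could not be placed. CYTB, ND3, ND4 and ND1 had smaller folds, at 0.63 (0.63 to 0.64), 0.68 (0.67 to 0.70), 0.83 (0.82 to 0.85) and 0.87 (0.86 to 0.87) times that of the most abundant contig. ATP6, at 1.02 times (0.97 to 1.07), could not be told from it at this depth. ND2, ND6 and ND4L had larger folds, at 2.50 (2.30 to 2.73), 4.26 (3.03 to 5.98) and 5.07 (3.12 to 8.23) times. For each 1000 FPKM of the most abundant contig there were 41.7 FPKM of CYTB in T9 and 26.4 in T25, and 19.2 and 16.6 of ND1. For ND2 the values were 0.24 in T9 and 0.60 in T25, and for ND4L 0.05 and 0.27. The mitochondrial reads of the T9 library thus held relatively more CYTB and ND3 and relatively less ND2, ND6 and ND4L.

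When the 10 contigs are ordered by fold, 6 of the 9 neighbouring pairs differed by more than counting error. The pairs that did not were CYTB and c91062_g1_i1, with a ratio of folds of 1.02 (0.93 to 1.12), ATP6 and the most abundant contig, and ND4L and ND6, with a ratio of 1.19 (0.66 to 2.15). ND4 and ND1, whose folds look alike, differed by 1.04 times (1.02 to 1.06), which is beyond counting error in these libraries but has no replicate to compare it with.

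Levels per length spanned a far wider range than folds. Over the 8 protein-coding contigs the highest FPKM was 887 times the lowest in T9 and 132 times the lowest in T25, and the highest fold was 8.0 times the lowest. The order of the genes by FPKM was CYTB, ND1, ND3, ATP6, ND4, ND2, ND4L and ND6 in T9, and in T25 it changed only in that ATP6 passed ND3. ND4L and ND6 could not be ordered in T9, where their intervals were 1.79 to 4.92 and 1.89 to 3.78 FPKM. Among the protein-coding contigs, those of low T9 level tended to have the larger folds (Spearman's rho -0.86 over 8 contigs). These share both libraries, and the T9 level is part of the fold. With T25 levels rho was -0.79. The unnamed contigs, not part of this correlation, went against it. c91062_g1_i1 had 20.4 FPKM in T9 and the smallest fold of the members, 3.12. c68678_g1_i1 had the highest level, 57815 FPKM in T9, and a larger fold (5.04) than CYTB, ND3, ND4 and ND1. Over the whole table, the median fold of all contigs lower in T9 was 5.40, and 3.11 over those of them with 1000 counts or more. The table holds only contigs called different between the libraries, and a scarce contig may be called only at a larger fold. These medians therefore cannot show that scarcity and fold go together, and the same selection applies to the members.

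The contigs with the largest folds were set beside the genes that neighbour them in Drosophila, where ND6 and CYTB adjoin on one strand of the mitochondrial genome and ND4L and ND4 on the other. The order of the genes in this ant was not examined. The contigs of ND6 and CYTB came from one Trinity component (c13543). CYTB stood 887 times above ND6 by FPKM in T9 and 132 times above it in T25, and the fold of ND6 was 6.73 times (4.79 to 9.45) that of CYTB. Likewise ND4 stood 87.2 times above ND4L in T9 and 14.4 times above it in T25, and the fold of ND4L was 6.08 times (3.74 to 9.89) that of ND4. Both pairs were chosen after their values were seen. Other pairs of genes were compared too, with ratios of folds from 0.67 (ND3 over ATP6) to 2.89 (ND2 over ND1). Among them, the ratio of ND1 over CYTB was 1.37 (1.35 to 1.38). None of these other pairs set ND6 or ND4L against any gene but each other. ND6 and ND4L had the largest folds of the members, so large ratios against CYTB or ND4 do not single out neighbouring genes. The contigs of ND6 and ND4L were short, with FPKM lengths 0.395 and 0.171 times that of the most abundant contig. By the strand known from Drosophila the folds overlapped: ND1, ND4 and ND4L, on one strand, ranged from 4.2 to 25.6, and CYTB, ND2, ND3, ND6 and ATP6, on the other, from 3.19 to 21.5. Whether reads were counted by strand is not given in the sources used here, so reads of a gene and of its antisense strand cannot be told apart.

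The nuclear partners of these proteins were nearly missing from the table, which holds only contigs called different between the libraries. Absence from it therefore does not show that a gene was not expressed. A list of nuclear genes of the respiratory chain, its carriers and the mitochondrial ribosome found 3 contigs, of which 2 had more RNA in T9 and 1 had less. The Rieske protein of complex III (c82662_g1_i1), the iron-sulfur partner of cytochrome b, had 114 counts in T9 and 36 in T25, being 2.93-fold (2.0 to 4.39) higher in T9. An ADP,ATP carrier (c99354_g1_i1), which exchanges these nucleotides across the inner membrane, had 1 count in T9 and 17 in T25, a ratio of 18.4-fold (2.88 to 768) lower in T9. The third contig (c75092_g1_i1), also an ADP,ATP carrier, was matched to the mould Penicillium and had 15 and 2 counts, 6.94-fold (1.61 to 62.5) higher in T9. No contig of the list was a nuclear subunit of complex I, complex II, complex IV or ATP synthase.

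A wider list of nuclear genes with the word mitochondrial in their description, drawn up after the values were seen, had 22 contigs, of which 17 were higher in T9 and 5 were lower. As background, 54.7% of all contigs were higher in T9, and of contigs adding up to 1000 counts or more 79.7% were, beside 8 of the 8 of that depth on the list. Its median log2 ratio was 1.61, beside 1.45 over the whole table. Enzymes of fatty acids and cofactors led it. Lipoyltransferase 1 (c80056_g1_i1), which attaches lipoate to mitochondrial enzymes, had 39762 counts in T9 and 8555 in T25, being 4.3-fold (4.2 to 4.4) higher. The acyl-CoA synthetase short-chain family member 3 contig (c85548_g1_i3), which activates short fatty acids, had 41381 and 15482 counts and was 2.47-fold (2.43 to 2.52) higher. Mitochondrial pyruvate carrier 1-like (c74678_g1_i1), part of the pore that brings pyruvate into mitochondria, had 3951 and 1335 counts and was 2.74-fold (2.57 to 2.92) higher. Of the 5 lower contigs, the largest by count was c89966_g1_i3, matched by nucleotide to mitochondrial ribosome-associated GTPase 2. It had 47 and 157 counts and was 3.61-fold (2.59 to 5.11) lower. A contig of 2-oxoglutarate dehydrogenase (c65213_g1_i1), an enzyme of the citric acid cycle, had 49 and 119 counts and was 2.62-fold (1.87 to 3.74) lower. The contigs named here were picked and do not follow the order by count.

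**Figure D4:**
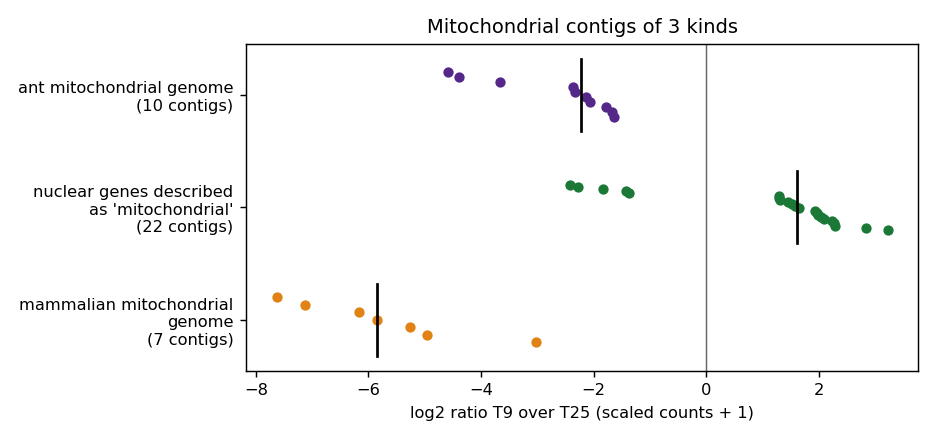
Log2 ratio of T9 over T25 (1 added to each scaled count) of the 10 contigs of the ant mitochondrial genome, of 22 nuclear contigs described as mitochondrial and of 7 contigs matched to a mammalian mitochondrion; each point is a contig and black bars are medians. All ant mitochondrial contigs lie below 0 in this scaling and 17 of the 22 nuclear ones above it, and when scaled to the housekeeping list (median -1.91) CYTB, ND3 and c91062_g1_i1 also lie above it. Scaled to that list without its mammal-matched contigs (median 1.68), CYTB, ND3 and c91062_g1_i1 stay below 0.

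RNA of another animal moved in the same direction. Of the 7 contigs matched to a mammalian mitochondrion, 6 to mouse and 1 to cattle, all 7 were lower in T9, with 1 or 2 counts each in T9 and 22 to 374 in T25, and sums of 9 and 1065. The largest were ATP synthase subunit 6 (c34823_g1_i1), with 1 count in T9 and 374 in T25, and cytochrome oxidase subunit 3 (c114204_g1_i1), with 1 and 262. The summed level of the 7 contigs in T25 was 30.2 FPKM, below that of each ant mitochondrial contig in T25, of which ND6 at 53.4 FPKM was the lowest. Most contigs of a muscle list and of a list of sensory receptors were also lower in T9. Of 15 muscle contigs, 12 were lower in T9 (median log2 ratio -1.71), and the counts of all 15 summed to 48768 in T9 and 95331 in T25, 2.11-fold (2.09 to 2.14) lower. A troponin T contig (c101719_g1_i1), part of the calcium switch of muscle, held 29437 and 75741 of these counts. The other 14 contigs summed to 19331 and 19590, 1.1-fold (1.07 to 1.12) lower. Of these 14, 11 were lower in T9. Each differs by more than 2.3-fold, so the near-equal sums come from changes in opposite directions that offset each other. Of 45 odorant receptor and rhodopsin contigs, 44 were lower in T9 (median log2 ratio -2.66). As background for the mammalian, muscle and sensory lists, 45.3% of all contigs were lower in T9, and 20.3% of those adding up to 1000 counts or more. By construction of the table no muscle or sensory contig was at 0 in a library. The part of mammalian RNA and of these tissues in the mitochondrial difference was not tested.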

How the data were processed

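The authors trimmed the reads with Trimmomatic 0.38, checked them with FastQC 0.11.7, assembled the reads of both libraries together with Trinity, made them non-redundant with CD-HIT, and aligned the reads of each temperature with Bowtie 1.1.2 before they estimated counts with RSEM. The deposited counts are raw whole numbers, the lowest of them 1. The deposited FPKM values were divided by the authors by contig length and depth. The deposited log2 values are log2(CPM + 1) with a normalised library size, which was recovered from them. Deposited fold changes and p-values compare 1 library with 1 and were not used.

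Ratios of scaled counts were given with exact Clopper-Pearson 95% intervals, and ratios of folds with a Wald interval on the log scale, since the conditional interval planned was too slow at these counts. Intervals cover counting error only, and reads are not independent molecules. Gene lists were found by words in the descriptions. Genes are named by rule: all 10 members, the nuclear list, and the 2 largest mammalian mitochondrial contigs. Contigs of the wider list were chosen after their values were seen. Members and lists were chosen with earlier results of these data known. Calculations used Python 3.11.15, numpy 2.4.6, pandas 2.3.3, scipy 1.17.1 and matplotlib 3.10.9 and were tested on simulated data.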

Additional observations from a re-analysis of the deposited data

How the results depend on the processing

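The log2 ratio of T9 to T25 was -2.33 for the most abundant contig and -1.84 for the summed protein-coding contigs. It was -2.20 and -1.77 from the deposited FPKM, -2.20 and -1.71 with clean read totals, and -3.75 and -3.25 when scaled by all contigs that are not mitochondrial. The last scaling moved every value because the other contigs of the table sum higher in T9. Scaled to the 16 contigs of the housekeeping list (median -1.91), the values were -0.43 and 0.067, and CYTB (0.23), ND3 (0.12) and c91062_g1_i1 (0.27) also turned above 0. With the 10 of them not matched to mammals (an alternative added after seeing the data) the median was 1.68 and the values -4.02 and -3.52. Without CYTB the protein-coding sum was -2.09. A pseudocount of 0.5 or 5 left both sums as they were. By FPKM the most abundant contig held 92.7% of the members in T9 and 94.5% in T25, in place of 89.7% and 92.5% by count. Its fold over that of the protein-coding sum was 1.35 by FPKM and 1.18 without CYTB, in place of 1.41. Of the nuclear list, 1 contig higher and 0 lower had at least 100 counts, and the wider list had 17 higher and 5 lower. The median log2 ratio of the protein-coding contigs was -2.25, and -2.10 without ND6 and ND4L. No paired analysis was possible because each temperature has 1 library, which also leaves no replicate to leave out. The 17 and 35 counts of ND4L and ND6 in T9 limit their folds.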
